A study of Mus musculus with 12 samples.

Results

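The interleukin-1 (IL-1) family is a group of cytokines and receptors that carry the first inflammatory signal of an injured tissue. IL-1alpha, IL-1beta, IL-18 and IL-33 are agonists. Each binds a receptor chain, which is the same for IL-1alpha and IL-1beta. That chain then recruits a shared or related accessory chain and signals through the adaptor MyD88 to NF-kappaB. The family brakes itself through the receptor antagonist IL-1Ra, which occupies the IL-1 receptor without signalling, and through the decoy receptor IL-1R2, which binds IL-1 and has no signalling domain. In the colon, IL-1beta comes mainly from myeloid cells, IL-18 from the epithelium, and IL-33 from stromal cells and injured epithelium. The members described here were the 10 genes Il1a, Il1b, Il1rn, Il1r1, Il1r2, Il1rap, Il33, Il1rl1, Il18 and Il18r1. They were found on the arrays by the RefSeq accession of each probe, which gave 16 probes. Of the 10 genes, 9 passed the filter on dim probes and were tested among 23352 genes or transcripts in all. Il1a did not pass it.

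The RNA came from whole colon of male C57BL/6J mice and was hybridised to 12 single-colour Agilent whole-genome oligonucleotide arrays. The groups, with 2 arrays each, were ATF6aKO given dextran sulfate sodium (DSS), ATF6aKO untreated (UT), ATF6bKO given DSS, ATF6bKO UT, wild type (WT) titled DSS and WT titled UT. ATF6aKO lacks Atf6 and ATF6bKO lacks Atf6b; both genes encode sensors of protein folding in the endoplasmic reticulum. DSS is a sulfated sugar polymer that damages the lining of the colon and causes colitis, and was added to the drinking water at 3% for 3 days. The sources used here give neither the age of the mice nor how the knockouts were made. Whether the 2 arrays of each group represent different mice is not stated, so the p-values reflect no more than the variation among these samples, and part of it may be technical. Every level below is the log2 signal of a probe relative to the 75th percentile of its array, in log2 units, and 0 is therefore the level of a probe at that percentile. Probes differ in how strongly they bind, so levels are compared between arrays for 1 probe and not between probes.

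Atf6 averaged -3.16 and -3.13 in ATF6aKO DSS and UT colon, against 0.73 to 1.18 in the other 4 groups. Atf6b was well above background on 1 of 4 ATF6bKO arrays and on all 8 other arrays, so both genotype labels held. For the 4 WT samples the titles state one treatment and the treatment fields the other. The WT groups follow the titles, and no sign of the WT difference is read as an effect of DSS. Each genotype may have been hybridised on a slide of its own, with its DSS and UT arrays on the same slide. Slide and genotype therefore cannot be told apart when genotypes are compared. The 75th percentile signal was 246 to 1186 and 65.5% to 76.3% of the probes were well above background per array. One library stood apart: the mean level of 10 squamous epithelium markers was 2.67 in ATF6bKO DSS replicate 2 and -0.68 in replicate 1, against -2.79 to -2.15 on the other 10 arrays.

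The promoters of Il1b, an agonist, and of its inhibitors Il1rn and Il1r2 are shown, because these genes are described in most detail below. They are from RefSeq, build GRCm38.p6, and run from 250 bases before to 50 bases after a transcript start. All 10 members matched the table, some with several starts. The motifs searched were TATAAA on the gene's strand, TGANTCA (AP-1, its reverse complement is the same motif), TTNNGNAAT (C/EBP) on both strands, and the NF-kappaB consensus on both strands. Matches are in capitals.
Il1b, chr2:129371090-129371389, minus strand: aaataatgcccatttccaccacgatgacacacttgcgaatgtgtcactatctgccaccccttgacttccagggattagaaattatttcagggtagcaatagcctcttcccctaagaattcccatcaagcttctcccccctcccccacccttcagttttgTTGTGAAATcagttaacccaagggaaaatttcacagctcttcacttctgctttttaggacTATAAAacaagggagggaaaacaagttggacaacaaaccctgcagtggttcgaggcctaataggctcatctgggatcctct
Il1rn, first start, chr2:24336610-24336909, plus strand: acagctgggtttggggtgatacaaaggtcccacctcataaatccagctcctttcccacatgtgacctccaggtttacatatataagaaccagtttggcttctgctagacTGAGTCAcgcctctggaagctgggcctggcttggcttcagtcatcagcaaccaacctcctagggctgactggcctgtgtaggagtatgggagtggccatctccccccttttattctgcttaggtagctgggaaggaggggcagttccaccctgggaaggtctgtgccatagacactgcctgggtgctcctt
Il1rn, downstream start, chr2:24345121-24345420, plus strand: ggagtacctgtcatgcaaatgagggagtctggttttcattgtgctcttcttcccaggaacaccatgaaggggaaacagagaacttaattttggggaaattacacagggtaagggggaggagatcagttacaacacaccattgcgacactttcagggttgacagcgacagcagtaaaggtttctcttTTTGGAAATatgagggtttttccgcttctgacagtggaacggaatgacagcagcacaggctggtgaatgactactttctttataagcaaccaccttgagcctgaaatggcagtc
Il1r2, chr1:40085843-40086142, plus strand: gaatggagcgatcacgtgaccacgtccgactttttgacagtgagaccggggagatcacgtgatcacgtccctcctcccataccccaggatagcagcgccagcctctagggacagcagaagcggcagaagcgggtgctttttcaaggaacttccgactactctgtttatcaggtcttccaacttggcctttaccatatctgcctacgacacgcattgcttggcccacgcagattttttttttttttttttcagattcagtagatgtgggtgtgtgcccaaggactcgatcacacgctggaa
The Il1b window held TATAAA at positions -31 to -26 and a C/EBP match, TTGTGAAAT, at -91 to -83, counted from the start with the first transcribed base as 1. In Il1rn the first start had an AP-1 match, TGAGTCA, at -141 to -135, and the downstream start had a C/EBP match, TTTGGAAAT, at -64 to -56. The Il1r2 window held none of these letters. Among all 32851 promoter windows of the same length, 8.32% held TATAAA, 7.81% the AP-1 motif, 11.5% the C/EBP motif and 8.46% the NF-kappaB consensus. A match describes the letters only, and the arrays do not tell which start was used.

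In the knockout colons DSS raised IL-1beta, its signalling receptor and both of its brakes together, along with IL-33. Pooled over both knockouts (8 arrays, genotype in the model), 5 of the 9 tested members rose and none fell at an adjusted p under 0.05 (limma, Benjamini-Hochberg over all genes tested), where 13.2% of all genes tested were higher and 15.8% lower. The 5 were Il1b, 7.25-fold, Il1r2, 4.55-fold, Il33, 2.69-fold, Il1rn, 2.57-fold, and Il1r1, 1.63-fold. The other 4, Il1rl1, Il1rap, Il18 and Il18r1, did not pass. The median change over the 9 members was 1.36 on the log2 scale, against -0.01 over all genes. In ATF6aKO alone 2 of 9 passed, Il1b and Il1r2, where 2.89% of all genes were higher. In ATF6bKO alone 5 of 9 passed, Il1b, Il1r2, Il1rn, Il33 and Il1rl1, where 5.70% of all genes were higher. All 5 calls of the pooled comparison held when any 1 of the 8 arrays was left out, with adjusted p up to 0.042.

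**Figure D1:**
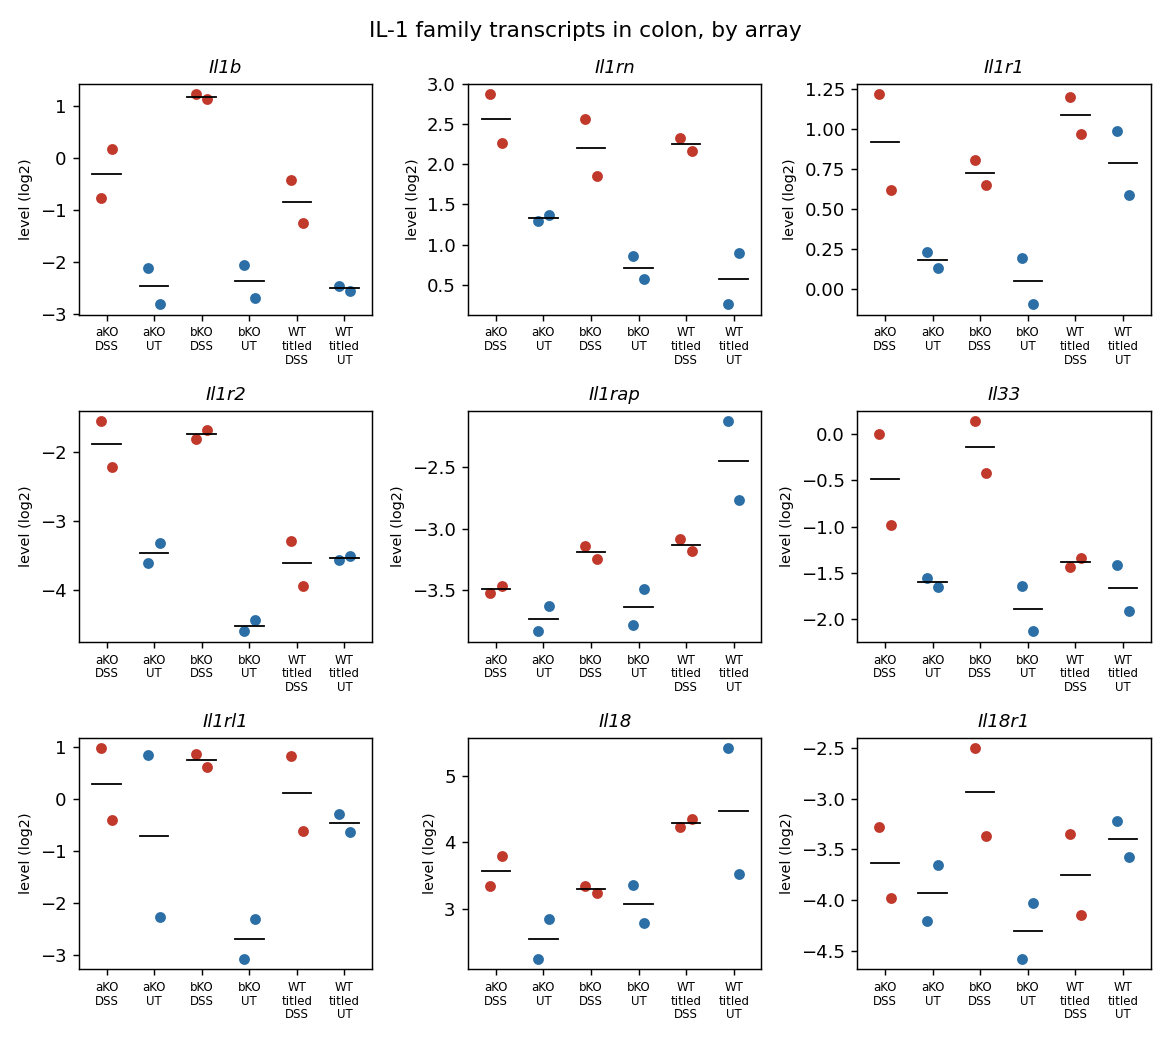
Levels of the 9 tested members (vertical axes, log2 relative to the array's 75th percentile) on each of the 12 arrays, with groups along the horizontal axes (aKO, ATF6aKO; bKO, ATF6bKO). Points are arrays, red for DSS or titled DSS and blue for UT or titled UT, and bars are group means. Il1b, Il1rn, Il1r1, Il1r2, Il1rap and Il33 lay higher on every DSS array than on every UT array of the same knockout. The share of all genes that do so is not given here.

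Il1b encodes IL-1beta, a cytokine made as an inactive precursor and cut by caspase-1. Its level was -0.79 and 0.17 in ATF6aKO DSS colon, against -2.13 and -2.82 in ATF6aKO UT colon. It was 1.22 and 1.13 in ATF6bKO DSS colon, against -2.07 and -2.69 in ATF6bKO UT colon. Both DSS groups lay above both UT groups with no overlap, and the 2 ATF6bKO DSS arrays were the highest of the 12. Il1b rose by 2.16 ± 0.40 (log2 change ± SE, n = 2 each) in ATF6aKO, with an adjusted p of 0.020 (limma), and by 3.55 ± 0.40 in ATF6bKO, with an adjusted p of 0.0019. The ATF6aKO call was lost when ATF6aKO UT replicate 1 (2.51, adjusted p 0.061 by limma), ATF6aKO UT replicate 2 (1.82, 0.123) or ATF6aKO DSS replicate 2 (1.69, 0.095) was left out. The rise was -1.39 in ATF6aKO minus ATF6bKO, with a 95% confidence interval of -2.68 to -0.10 and an adjusted p of 0.589 (limma), so a difference between the knockouts did not pass. In a bulk extract, more cells that make a transcript and more transcript per cell cannot be told apart.

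Il1rn encodes the receptor antagonist IL-1Ra. Its brighter probe read 2.87 and 2.26 in ATF6aKO DSS colon, against 1.29 and 1.37 in ATF6aKO UT colon. In ATF6bKO it read 2.56 and 1.85 with DSS, against 0.85 and 0.58 in UT colon. Every DSS array was above every UT array of the knockouts. The increase was 1.49 ± 0.31 in ATF6bKO (SE, adjusted p 0.017, limma). In ATF6aKO the difference was 1.24 ± 0.31 with an adjusted p of 0.053, and pooled over the knockouts Il1rn rose by 1.36 ± 0.20, adjusted p 0.0046. A second probe of Il1rn gave 1.47 ± 0.24 in ATF6aKO and 1.87 ± 0.24 in ATF6bKO, with adjusted p of 0.016 and 0.0028 in a limma fit of all 30428 kept probes. The call in ATF6bKO was lost without ATF6bKO UT replicate 1 (1.63, adjusted p 0.057 by limma), ATF6bKO UT replicate 2 (1.35, 0.079) or ATF6bKO DSS replicate 1 (1.13, 0.097).

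Il1r2 encodes the decoy receptor, which neutrophils and other myeloid cells shed. Its brighter probe was at -1.55 and -2.21 in ATF6aKO DSS colon, against -3.61 and -3.32 in ATF6aKO UT colon. In ATF6bKO DSS colon it was at -1.80 and -1.68, against -4.61 and -4.44 in ATF6bKO UT colon. The 4 DSS arrays of the knockouts were the highest of the 12 and the 2 ATF6bKO UT arrays the lowest. It rose by 1.59 ± 0.27 (SE) in ATF6aKO and by 2.78 ± 0.27 in ATF6bKO, with adjusted p of 0.016 and 0.0014 (limma). The ATF6aKO call was lost without ATF6aKO UT replicate 1 (1.44, adjusted p 0.096 by limma), ATF6aKO UT replicate 2 (1.73, 0.069) or ATF6aKO DSS replicate 1 (1.26, 0.115). The rise in ATF6aKO minus that in ATF6bKO was -1.20, with a 95% interval of -2.07 to -0.32 and an adjusted p of 0.472 (limma). A dimmer second probe of Il1r2 was well above background on all 4 ATF6aKO arrays, both ATF6bKO DSS arrays and no ATF6bKO UT array. It gave 1.20 ± 0.62 in ATF6aKO, with an adjusted p of 0.288 (limma), so it did not share the ATF6aKO call, and in ATF6bKO UT colon its signal is only a bound.

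Il1r1 encodes the signalling receptor for IL-1alpha and IL-1beta, and Il1rap the accessory chain it shares with the IL-33 receptor. Il1r1 stood at 1.22 and 0.62 in ATF6aKO DSS colon, against 0.23 and 0.13 in ATF6aKO UT colon, and at 0.81 and 0.65 in ATF6bKO DSS colon, against 0.19 and -0.09 in ATF6bKO UT colon. The DSS arrays were again above the UT arrays. Pooled, Il1r1 rose by 0.71 ± 0.15 (SE, adjusted p 0.014, limma). The differences within ATF6aKO (0.74) and within ATF6bKO (0.68) had adjusted p of 0.104 and 0.101. Il1rap read -3.52 and -3.47 in ATF6aKO DSS colon, against -3.83 and -3.63 in ATF6aKO UT colon, and -3.14 and -3.25 in ATF6bKO DSS colon, against -3.78 and -3.49 in ATF6bKO UT colon. It differed by 0.34 ± 0.11 over the knockouts with an adjusted p of 0.053 (limma). The DSS arrays of each knockout lay above its UT arrays, but the ranges of the 4 DSS and 4 UT arrays overlapped. These Il1rap values are from the probe with accession NM_134103, and the other probe, NM_008364, was not well above background on any of the 12 arrays. All Il1rap values in this report thus rest on the NM_134103 probe. Which form of the accessory chain it reads was not determined.

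The balance of agonist and brakes was described as the log2 ratio of probe signals on the same array, of which the change and not the size can be read. Il1b over Il1rn was -1.34 and -0.72 in ATF6bKO DSS colon, against -2.92 and -3.27 in ATF6bKO UT colon, a change of 2.06 with no overlap. In ATF6aKO the same ratio was -3.66 and -2.10 with DSS, against -3.42 and -4.19 in UT colon, and the groups overlapped. Both ATF6bKO DSS arrays, and 1 of the 2 ATF6aKO DSS arrays, thus lay above the UT arrays of their genotype. Il1b over Il1r2 was 3.02 and 2.80 in ATF6bKO DSS colon, against 2.54 and 1.74 in ATF6bKO UT colon, a change of 0.77. In ATF6aKO Il1b over Il1r2 was 0.76 and 2.37 with DSS, against 1.49 and 0.50 in UT colon, which overlapped. In WT Il1b over Il1r2 averaged 2.77 ± 0.13 in titled DSS colon, against 1.02 ± 0.12 in titled UT colon (SD, n = 2 each), a change of 1.75 with no overlap. Il1b over Il1rn in WT was -2.76 and -3.43 in titled DSS colon, against -2.72 and -3.47 in titled UT colon, and the groups overlapped. The change of the mean was smaller for Il1b over Il1r2 than for Il1b over Il1rn in the knockouts, 0.77 and 2.06 in ATF6bKO and 0.58 and 0.93 in ATF6aKO, and greater in WT by titles. No test was made of these ratios.

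**Figure D2:**
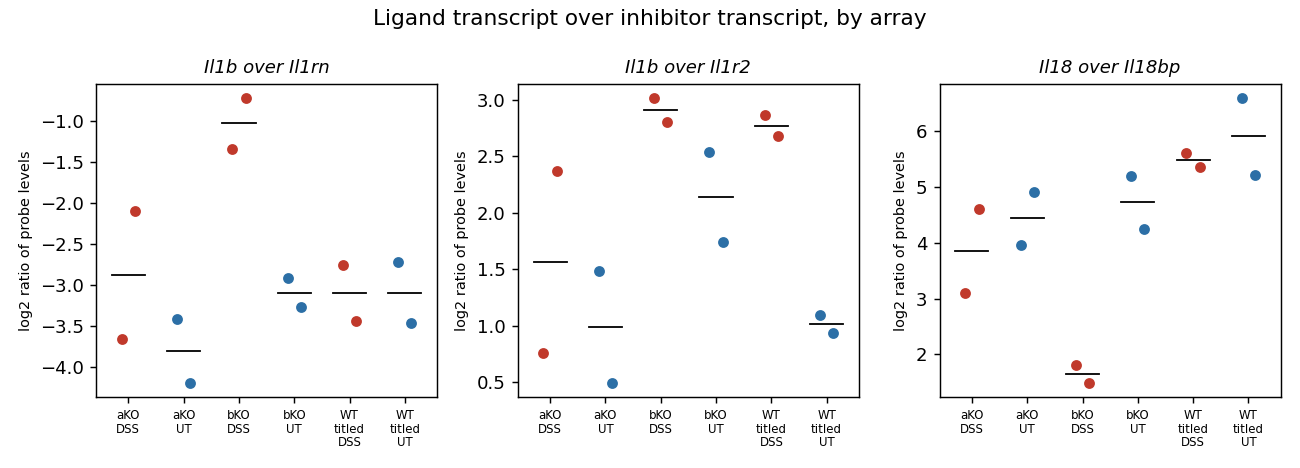
Log2 ratio of a ligand's probe signal to that of its inhibitor (vertical axes) on each array, for Il1b over Il1rn, Il1b over Il1r2 and Il18 over Il18bp, with groups along the horizontal axes. Points are arrays, red for DSS or titled DSS and blue for UT or titled UT, and bars are group means; Il18 over Il18bp was 1.80 and 1.49 in ATF6bKO DSS colon, below all other arrays.

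IL-33 is stored in the nucleus and released as an alarm signal by damaged cells, and Il1rl1 encodes its receptor ST2, carried by mast cells, regulatory T cells and group 2 innate lymphoid cells. Il33 was at -0.00 and -0.98 in ATF6aKO DSS colon, against -1.55 and -1.65 in ATF6aKO UT colon. In ATF6bKO it was at 0.14 and -0.42 with DSS, against -1.64 and -2.13 in UT colon. All 4 DSS arrays exceeded the 4 UT arrays. The gene rose by 1.74 ± 0.34 (SE) in ATF6bKO, adjusted p 0.013, and by 1.43 ± 0.27 over both knockouts, adjusted p 0.010 (limma). In ATF6aKO alone the difference was 1.11 ± 0.34, with an adjusted p of 0.091. The ATF6bKO call was lost without ATF6bKO UT replicate 2 (1.50, adjusted p 0.070 by limma) or ATF6bKO DSS replicate 1 (1.47, 0.079).

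Il1rl1 had the widest spread of the members between the arrays of 1 group, an SD of 2.21 in ATF6aKO UT colon. Its brightest probe read 0.97 and -0.40 in ATF6aKO DSS colon, against 0.85 and -2.27 in ATF6aKO UT colon. In ATF6bKO it read 0.85 and 0.62 with DSS, against -3.07 and -2.30 in UT colon. The 2 ATF6aKO UT arrays thus bracketed ATF6aKO DSS replicate 2, whereas the ATF6bKO groups were far apart. Il1rl1 rose by 3.42 ± 0.92 in ATF6bKO (SE, adjusted p 0.042, limma), and differed by 0.99 ± 0.92 in ATF6aKO (adjusted p 0.552). The ATF6bKO call held in 2 of the 12 fits that left out 1 array, and its adjusted p went up to 0.175, without ATF6bKO UT replicate 1. Leaving out ATF6aKO UT replicate 1 took the pooled difference to 3.08 with an adjusted p of 0.0095 (limma), against 2.21 and 0.080 with all 8 arrays.

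Both other Il1rl1 probes repeated the split of the ATF6aKO UT arrays. A second probe with accession NM_010743 read -4.33 and -4.63 in ATF6aKO DSS colon, against -4.83 and -6.46 in ATF6aKO UT colon. The probe with accession NM_001025602, another transcript of the gene, read -1.38 and -1.86 in ATF6aKO DSS colon, against -2.18 and -3.04 in ATF6aKO UT colon. On these probes the ATF6aKO DSS arrays lay above both ATF6aKO UT arrays, but no difference is given for the second NM_010743 probe, which exceeded background clearly on ATF6aKO UT replicate 1 but not replicate 2 and on neither ATF6bKO UT array. In the fit of all kept probes the NM_001025602 probe rose by 1.26 ± 0.30 in ATF6bKO, adjusted p 0.027, and by 1.12 ± 0.21 over the knockouts, adjusted p 0.0092 (limma). The brightest probe, which stands for the gene, did not pass in the pooled comparison. The accessions stand for different transcripts of Il1rl1, and which form of the receptor each probe reads was not determined.

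**Figure D3:**
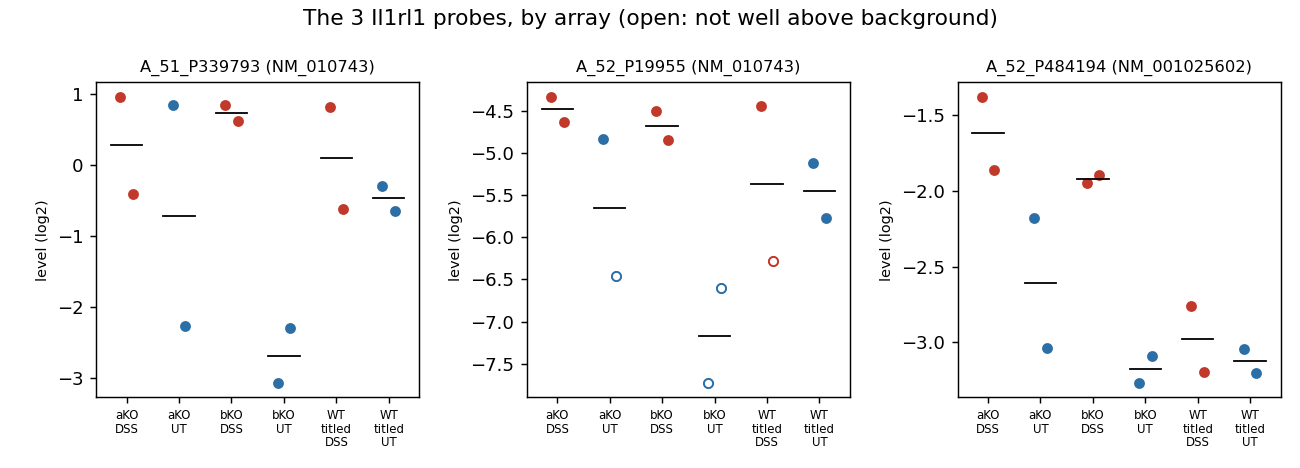
Levels of the 3 Il1rl1 probes (vertical axes, log2 relative to the array's 75th percentile) by array and group, red for DSS or titled DSS and blue for UT or titled UT, with bars at group means and open points where the probe was not well above background. In each panel ATF6aKO UT replicate 1 lies above replicate 2, at 0.85 and -2.27 on the brightest probe, and the ATF6bKO UT arrays lie below the ATF6bKO DSS arrays.

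In the IL-18 axis the transcript of the binding protein rose, and those of the ligand and its receptor did not pass the test. IL-18 is kept ready as a precursor in epithelial cells, IL-18 binding protein (Il18bp) neutralises it, and Il18r1 encodes the ligand-binding receptor chain. Il18 was at 3.35 and 3.79 in ATF6aKO DSS colon, against 2.26 and 2.85 in ATF6aKO UT colon, and at 3.35 and 3.25 in ATF6bKO DSS colon, against 3.37 and 2.79 in ATF6bKO UT colon. The ATF6aKO groups were apart and the ATF6bKO groups overlapped, and the pooled difference of 0.61 ± 0.24 (SE) had an adjusted p of 0.099 (limma). Il18bp, from the list of other family receptors and binding proteins, rose by 1.59 ± 0.35 in ATF6aKO (adjusted p 0.034) and by 3.30 ± 0.35 in ATF6bKO (adjusted p 0.0017). Its mean level was -0.29 in ATF6aKO DSS colon, against -1.88 in ATF6aKO UT colon, and 1.65 in ATF6bKO DSS colon, against -1.65 in ATF6bKO UT colon. The log2 ratio of Il18 to Il18bp was 1.80 and 1.49 in ATF6bKO DSS colon, against 5.20 and 4.25 in ATF6bKO UT colon, a change of -3.08. In ATF6aKO it was 3.11 and 4.61 with DSS, against 3.97 and 4.91 in UT colon, which overlapped. Il18r1 read -3.28 and -3.98 in ATF6aKO DSS colon, against -4.20 and -3.66 in ATF6aKO UT colon, and -2.51 and -3.37 in ATF6bKO DSS colon, against -4.57 and -4.03 in ATF6bKO UT colon. Only the ATF6bKO groups were apart, with a difference of 1.36 ± 0.41 and an adjusted p of 0.061 (limma).

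Il1a encodes IL-1alpha, an agonist released by dying epithelial cells. Both of its probes were not well above background on any of the 12 arrays, so no fold is given for it.

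**Figure D4:**
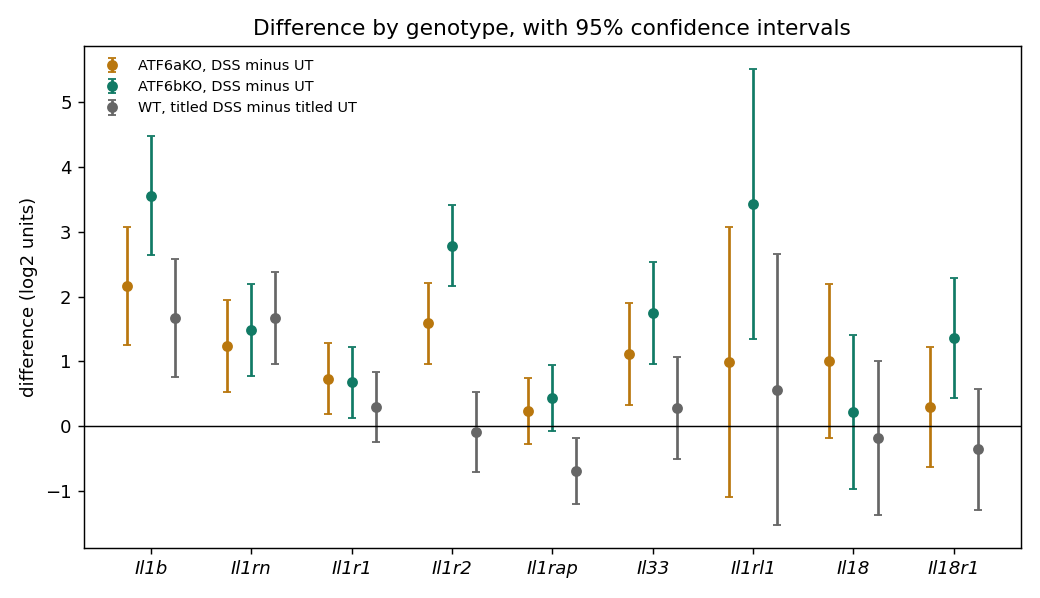
Difference in level (vertical axis, log2 units) for the 9 tested members, DSS minus UT in ATF6aKO and in ATF6bKO and titled DSS minus titled UT in WT, with bars for 95% confidence intervals. Il1r2 was 1.59 and 2.78 in the knockouts and -0.08 in WT, while Il1rn was between 1.24 and 1.67 in each genotype.

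The response to DSS was next set side by side between the genotypes. No member passed in ATF6aKO minus ATF6bKO (limma), where 0% of all genes tested passed. At an unadjusted p under 0.05, 2 of the 9 members and 1873 of all genes were counted; the 2 members were Il1b and Il1r2. The WT arrays, by their titles, gave Il1b at -0.43 and -1.26 in titled DSS colon, against -2.46 and -2.57 in titled UT colon. Il1rn was at 2.33 and 2.17 in titled DSS colon, against 0.26 and 0.90 in titled UT colon. Neither gene overlapped between the WT groups. Both were higher in titled DSS colon, by 1.67 ± 0.40 and 1.67 ± 0.31 (SE), with adjusted p of 0.016 and 0.0067 (limma). Il1rap was lower by this order, at -3.08 and -3.18 in titled DSS colon, against -2.13 and -2.77 in titled UT colon, a difference of -0.68 ± 0.22 with an adjusted p of 0.047. These were the 3 of 9 members that passed in WT, where 14.7% of all genes were higher and 17.0% lower. By the descriptions and treatment fields, each of these signs turns. The WT call of Il1b was lost without titled DSS replicate 1 (1.25, adjusted p 0.099 by limma) or titled UT replicate 1 (1.72, 0.055). That of Il1rap was lost in 11 of the 12 fits that left out 1 array.

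Il1r2 was the member whose WT arrays differed from the knockouts under either reading. It was at -3.29 and -3.94 in titled DSS colon, against -3.56 and -3.50 in titled UT colon, so the WT groups overlapped, and their difference was -0.08 ± 0.27 (SE, adjusted p 0.836, limma). The DSS minus UT difference was greater by 1.67 ± 0.39 in ATF6aKO than in WT by titles (adjusted p 0.039), and greater by 2.87 ± 0.39 in ATF6bKO than in WT (adjusted p 0.0086). By the descriptions these became 1.50 and 2.70, with adjusted p of 0.022 and 0.0023. All genes tested were higher in 3.57% for ATF6aKO minus WT by titles and in 6.26% for ATF6bKO minus WT by titles. The ATF6aKO call was lost in 11 of the 12 fits that left out 1 array, with adjusted p up to 0.129, and the ATF6bKO call held in all 12. The second Il1r2 probe, which was dim on both ATF6bKO UT arrays and on 1 array of each WT group (not well above background), had adjusted p of 0.789 and 0.104 for the same differences, so both calls rest on the brighter probe. The mean of the Il1r2 probes gave 1.03 for ATF6aKO minus WT, with an adjusted p of 0.251; over all 8 alternatives to this value the adjusted p was 0.021 to 0.251. Il1rap also passed in ATF6bKO minus WT by titles, 1.12 ± 0.32 with an adjusted p of 0.048 (limma), and was -0.24 with an adjusted p of 0.600 by the descriptions. That call held in 1 of the 12 fits that left out 1 array, with adjusted p up to 0.129, and in 3 of 8 alternatives. Genotype and slide cannot be told apart in these comparisons.

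Levels between genotypes, with treatment as a term, differed for few members when each gene was represented by its brightest probe. Il18 was lower in ATF6aKO than in WT by 1.31 on the log2 scale, at 2.26 to 3.79 over the 4 ATF6aKO arrays, against 3.53 to 5.41 over the 4 WT arrays, with an adjusted p of 0.043 (limma). The ranges overlapped, and the call was lost in 5 of the 8 fits that left out 1 array, with adjusted p up to 0.121, and in 4 of 8 alternatives, among them the deposited value table (-0.66, adjusted p 0.196 by limma). Il1rap was lower by 0.82, at -3.83 to -3.47 in ATF6aKO, against -3.18 to -2.13 in WT, with no overlap and an adjusted p of 0.031. That call was lost without titled UT replicate 2 (-0.86, adjusted p 0.056 by limma), ATF6aKO UT replicate 1 (-0.69, 0.095) or ATF6aKO UT replicate 2 (-0.77, 0.084), and also with normexp background correction (-0.38, 0.153) and with the scaling of the deposited value table (-0.16, 0.582), where the median difference of all genes was 0.56, against -0.07. These 2 of 9 members stood where 20.6% of all genes were lower in ATF6aKO than in WT and 14.6% higher. In ATF6bKO minus WT no member passed by limma, where 29.3% of all genes did. There 3 of the 9 members, Il18, Il1r1 and Il1b, and 10225 of the 23352 genes tested, had an unadjusted p under 0.05 (limma). Il18 differed by -1.19 in ATF6bKO minus WT, with an adjusted p of 0.052 (limma), and its ATF6bKO and WT arrays did not overlap. It passed in 4 of 8 alternatives, so a lower Il18 level was not particular to ATF6aKO. In ATF6aKO minus ATF6bKO no member passed, where 9.13% of all genes did, and Il18 differed by -0.13 (adjusted p 0.752, limma). There 1 of the 9 members, and 7127 of the 23352 genes tested, had an unadjusted p under 0.05 (limma).

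The order of the group means was not the same for each member. Il1b was highest in ATF6bKO DSS colon (1.17 ± 0.07, SD, n = 2), then in ATF6aKO DSS colon (-0.31 ± 0.67) and WT titled DSS colon (-0.85 ± 0.59), and its 3 UT groups lay between -2.52 and -2.38. Neighbours within the UT groups, and ATF6aKO DSS and WT titled DSS, had overlapping arrays. For Il1r2 the 2 knockout DSS groups overlapped at the top, at -1.74 ± 0.09 in ATF6bKO and -1.88 ± 0.47 in ATF6aKO, and ATF6bKO UT stood lowest at -4.52 ± 0.12. The 2 WT groups and ATF6aKO UT overlapped between them. For Il18 both WT groups were on top, 4.29 ± 0.09 in titled DSS and 4.47 ± 1.33 in titled UT colon, and ATF6aKO UT was lowest at 2.56 ± 0.42. Il33 was highest in ATF6bKO DSS (-0.14 ± 0.39) and ATF6aKO DSS colon (-0.49 ± 0.69), which overlapped, and its other 4 groups lay between -1.88 and -1.38.

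The genes of 4 of the receptors lie side by side on chromosome 1 of GRCm38.p6: Il1r2 (40084692 to 40125230), Il1r1 (40222480 to 40316201), Il1rl1 (40404864 to 40465418) and Il18r1 (40465552 to 40500854). Il1a, Il1b and Il1rn are on chromosome 2, Il18 on chromosome 9, Il1rap on chromosome 16 and Il33 on chromosome 19. The exon each probe lies in was not determined. Over the 12 arrays, which share the groups, Pearson's r between members was highest for Il1r2 with Il33 (0.89) and Il1b with Il33 (0.82), and near 0 for Il1b with Il18 (0.06). Among all named genes, those most like Il1b were Il11 (r = 0.979) and Il6 (0.963), and those most like Il1rn were Tgfbi (0.980) and Tuba1c (0.970). Those most like Il1r2 were C130050O18Rik (0.983) and Sla (0.982), and those most like Il33 were Ednra (0.956) and Ggta1 (0.949), all over 12 arrays.

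Most of the tested genes known to respond to IL-1 rose in the knockouts given DSS. Of 17 tested members of the response list, 12 rose, 1 fell and 4 did not pass in the pooled comparison. Their median change was 1.75 on the log2 scale. Of all genes tested, 13.2% were higher and 15.8% lower there. Mmp3, a stromal matrix protease, rose by 4.17 ± 0.17 (SE, adjusted p 0.00025, limma). The neutrophil chemokines Cxcl1 and Cxcl5 rose by 3.36 ± 0.28 and 3.07 ± 0.19, with adjusted p of 0.0011 and 0.00073. The cytokine Il6 rose by 2.52 ± 0.47 in ATF6aKO (adjusted p 0.020, limma). It was not well above background in ATF6bKO UT colon, so its change there is given as a bound: it was at least 24.1-fold higher in ATF6bKO DSS colon. Within the single knockouts 6 of 17 rose in ATF6aKO and 11 of 17 in ATF6bKO, and none fell. Of all genes, 2.89% were higher in ATF6aKO and 5.70% in ATF6bKO. The member that fell in the pooled comparison was Saa3, an acute phase gene, by 1.28 (adjusted p 0.0033, limma). These genes also answer to other cytokines.

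Fewer of the processing and signalling genes passed. Of 9 tested genes of precursor processing and the inflammasome, 4 rose and none fell: Mefv, which encodes pyrin, by 1.12 ± 0.23 (SE), the neutrophil and mast cell protease gene Ctsg by 0.82 ± 0.14, the pore former Gsdmd by 0.57 ± 0.11 and Casp4 by 0.57 ± 0.13, with adjusted p of 0.0062 to 0.019 (limma). Casp1, which cuts the IL-1beta and IL-18 precursors, differed by 0.24 with an adjusted p of 0.116. Of 16 tested genes between receptor and NF-kappaB, 5 rose, 2 fell and 9 did not pass, and their median was -0.02. Both lists stood where 13.2% of all genes were higher and 15.8% lower. Nfkb2 rose by 0.66 ± 0.07, the inhibitory kinase Irak3 by 0.59 ± 0.16 and the adaptor Myd88 by 0.55 ± 0.11, while the kinase subunit Ikbkg fell by 0.42 ± 0.09 (adjusted p 0.0021, 0.035, 0.010 and 0.018). The Irak3 call was lost in 6 of the 8 fits that left out 1 array, with adjusted p up to 0.089, and in 2 of 7 alternatives. That of Ikbkg was lost without ATF6bKO DSS replicate 1 or 2, with adjusted p up to 0.054, and in 2 of 7 alternatives, at -0.19 with normexp background correction. That of Casp4 was lost without ATF6aKO DSS replicate 1 or ATF6bKO UT replicate 1, with adjusted p up to 0.062. Sigirr, which encodes an inhibitory receptor of the family, differed by -0.24 with an adjusted p of 0.092. None of the 5 other family ligands, which are the IL-36 and IL-38 genes, was tested, because 3 had only dim probes and 2 had no matched probe.

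Markers of several cell types moved with the members in the knockouts. Of 12 tested neutrophil markers 11 rose in the pooled comparison, of 11 monocyte and macrophage markers 10, of 9 mast cell markers 7, of 9 T cell and innate lymphoid markers 8 with 1 lower, of 9 fibroblast and matrix markers 8, and of 6 endothelial markers 5 (limma). Of 9 absorptive colonocyte markers 2 fell and none rose. Of all genes in this comparison, 13.2% were higher and 15.8% lower. The log2 of the summed neutrophil marker signal was 2.45 and 1.92 in ATF6aKO DSS colon, against 0.10 and 0.06 in ATF6aKO UT colon, and 4.78 and 4.79 in ATF6bKO DSS colon, against -0.77 and 0.03 in ATF6bKO UT colon. In WT it was 0.92 and -0.67 in titled DSS colon, against -0.39 and -1.06 in titled UT colon, which overlapped. The WT groups overlapped for Il1r2 too, but not for Il1b or Il1rn. The neutrophil markers Mmp8 and Trem1 were well above background on all 4 DSS arrays and no UT array of the knockouts. Monocyte and macrophage markers summed to 7.87 to 8.31 on the knockout DSS arrays, against 6.62 to 6.80 on the knockout UT arrays. Their part in the rise of Il1b, Il1rn and Il1r2 was not tested.

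For the IL-33 axis the fibroblast and endothelial lists are the nearest. Fibroblast and matrix markers summed to 7.85 to 8.35 on the knockout DSS arrays, against 7.13 to 7.62 on the knockout UT arrays, and endothelial markers to 3.39 to 3.74, against 2.87 to 2.97. T cell and innate lymphoid markers summed to 2.57 to 2.82 on the knockout DSS arrays, against 2.11 to 2.35 on the knockout UT arrays. Mast cell markers summed to 5.28 and 5.34 in ATF6aKO DSS, 4.38 and 3.88 in ATF6aKO UT, 3.60 and 4.25 in ATF6bKO DSS and 2.93 and 2.61 in ATF6bKO UT colon, against -0.85 to 0.07 on the 4 WT arrays. Mast cell signal was thus low on the 4 WT arrays. On them the brightest Il1rl1 probe read -0.64 to 0.82, within the range of the knockout arrays. In the fit of all kept probes the NM_001025602 probe was higher in ATF6aKO than in WT by 0.94, adjusted p 0.031 (limma). In ATF6bKO it differed from WT by 0.50, adjusted p 0.170 (limma). Slide and genotype cannot be told apart here. The sum of squamous markers was 8.11 and 8.27 in ATF6bKO DSS colon, against 7.95 and 7.88 in ATF6bKO UT colon. Of the 10 markers 6 rose there, where 5.70% of all genes were higher. Without ATF6bKO DSS replicate 2 the 5 pooled calls remained. The part of these markers in the changes of Il33 and Il1rl1 was not tested.

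**Figure D5:**
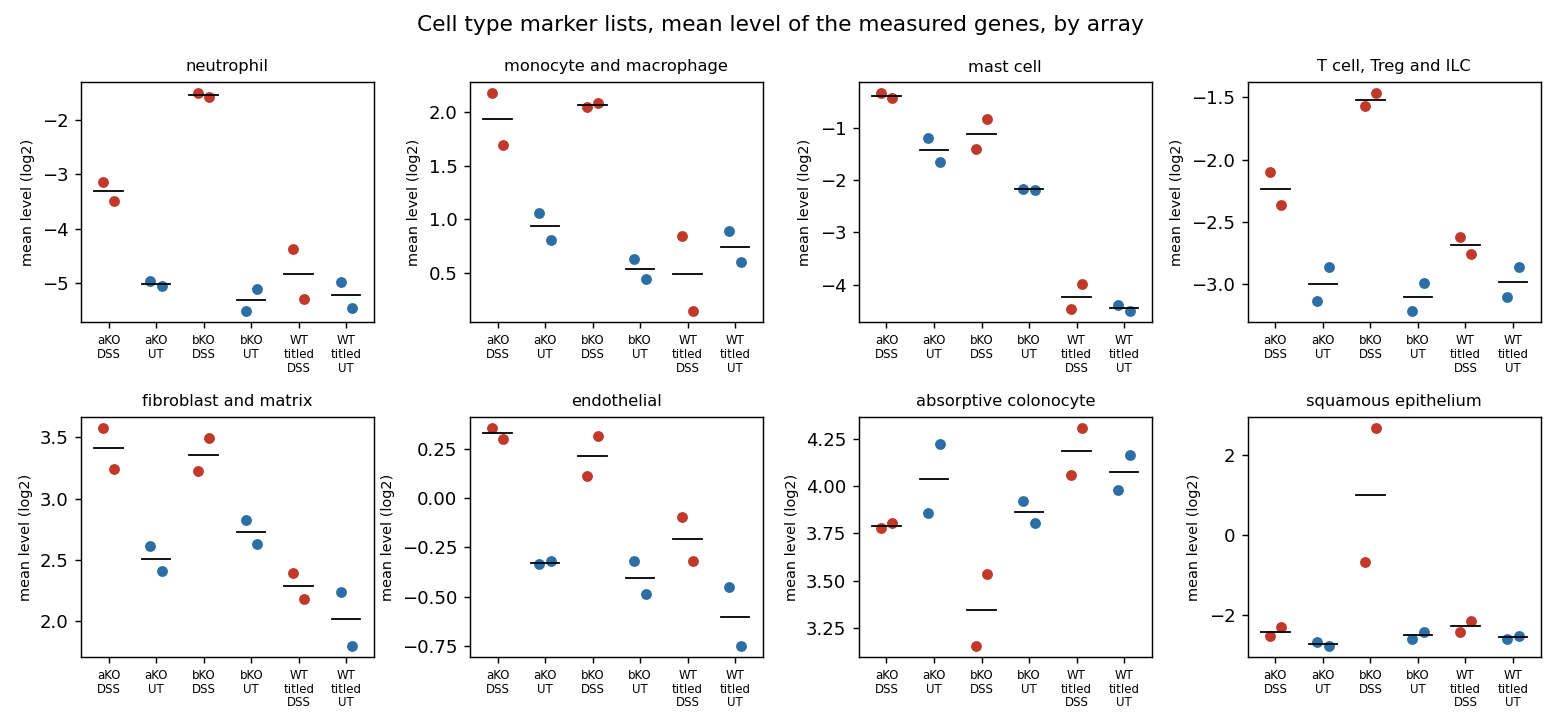
Mean level of each cell type marker list (vertical axes, log2 relative to the array's 75th percentile) on each array, red for DSS or titled DSS and blue for UT or titled UT, with groups along the horizontal axes and bars at group means. Neutrophil, macrophage, mast cell, lymphoid, fibroblast and endothelial means were higher on the knockout DSS arrays than on the UT arrays of the same knockout, and squamous markers stood out in ATF6bKO DSS replicate 2 at 2.67.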

How the data were processed

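Per the file headers and the submitters' processing notes, the authors quantified the arrays with Agilent Feature Extraction 10.7.1.1, and the deposited scanner files hold a background-subtracted intensity per spot (the processed signal) with no scaling between arrays, beside raw median spot and background intensity. The deposited value table holds log2 values centred on each probe's mean, with unknown scaling between arrays; 8 of its 12 columns equalled the array of another sample, among them all 4 WT columns, which held arrays of the other WT group, so each column was used as the array it equals, as an alternative only. WT arrays were read with an older array design, in which 5471 accessions differ but none of the members'.

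Control and outlier spots were left out. Each log2 processed signal was set relative to the 75th percentile of its array and averaged per probe; probes well above background on both arrays of at least 1 group were kept (30428), and a gene was represented by its brightest probe. Accessions were named through RefSeq (GRCm38.p6), which matched 24844 of 41174 probes (60.34%).

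Differences were fitted with limma 3.58.1 (lmFit, eBayes; R 4.3.3) on all 23352 genes, with Benjamini-Hochberg adjustment and a threshold of 0.05, in 10 comparisons. Responses within and between genotypes used 1 fit of 12 arrays; the pooled and genotype comparisons used 8 arrays with genotype or treatment as a term. The fit was tested on simulated data. The members, marker lists and pathway lists were chosen with earlier results of these data known. From each pathway list, up to 4 genes with the largest pooled change past the threshold were named, and for each member the 2 genes of highest Pearson's r. Casp1, Sigirr, Saa3, Mmp8 and Trem1 were named after their values were seen. Background correction, scaling, filters, probe choice, WT labels and left-out arrays were varied. The number of arrays limits the precision.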

Additional observations from a re-analysis of the deposited data

Results flagged for a closer look

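In all, 3 differences between genotypes in the DSS minus UT change passed the threshold when the difference itself was tested by limma. The change of Il1r2 was 1.67 greater in ATF6aKO than in WT by titles on the log2 scale, with an adjusted p of 0.039, and 2.87 greater in ATF6bKO than in WT by titles, with an adjusted p of 0.0086. The change of Il1rap was 1.12 greater in ATF6bKO than in WT by titles, with an adjusted p of 0.048. Il1r2 was higher on the DSS arrays than on the UT arrays in 2 of 2 knockouts, with no overlap, and its WT groups overlapped. The Il1rap difference changed sign under the other WT labels. When 1 of the 12 arrays was left out, the Il1rap call and the ATF6aKO call of Il1r2 were each lost in 11 of 12 fits, and the ATF6bKO call of Il1r2 held in all 12. All 3 rest on WT arrays whose labels conflict and that may have been hybridised on a slide of their own.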

How the results depend on the processing

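Counts below are members past the threshold by limma. Pooled over the knockouts the count was 8 with normexp background correction, against 5. Over all genes it was 8404, against 6787. With only the compared arrays fitted the member count was 0 in ATF6aKO, against 2, 3 in ATF6bKO, against 5, and 0 in WT, against 3. These fits hold fewer arrays. For ATF6aKO minus WT responses, against 1, it was 0 with the value table, with no filter, with the mean of probes and with the replicate block, and 3 with WT by descriptions. For ATF6bKO minus WT responses, against 2, it was 4 with quantile scaling, 1 with the value table or no filter, and 5 with WT by descriptions. For ATF6aKO minus WT, against 2, it was 1 with normexp, WT by descriptions or the replicate block and 4 with the value table. For ATF6bKO minus WT, against 0, it was 5 with normexp, 1 with quantile scaling or the replicate block, 3 with the value table and 2 with the strict filter. For ATF6aKO minus ATF6bKO, against 0, it was 3 with normexp. The cause was not tested. Leaving out 1 array gave 5 to 6 pooled, 0 to 4 in ATF6aKO, 2 to 5 in ATF6bKO, 1 to 4 in WT, 0 to 3 and 1 to 4 for the ATF6aKO and ATF6bKO responses minus WT, 0 to 2 and 0 to 1 for ATF6aKO and ATF6bKO minus WT, and 0 for both ATF6aKO minus ATF6bKO comparisons; a lone array of a group was assumed to vary like the others.

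With WT by descriptions the WT differences were -1.67 for Il1b, -1.67 for Il1rn and 0.68 for Il1rap, and the response differences were 2.91 for Il1rn in ATF6aKO minus WT, and 3.16 for Il1rn and -0.24 for Il1rap in ATF6bKO minus WT. Il18r1 in ATF6bKO minus WT was 0.58 with normexp, against -0.05. Of 1859 values of single genes under the alternatives, these 7 changed sign while past the threshold in at least 1 of both fits. A further 1688 kept their side of the threshold, among them values past it in neither fit that changed sign, 106 lost it and 58 gained it. The median difference of all genes was 0.56 and 0.60 with the value table and 0.12 and 0.34 with normexp in ATF6aKO and ATF6bKO minus WT, against -0.07 and -0.03, and pooled over the knockouts it was 0.11 with normexp, against -0.01.

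Leaving out 1 array moved counts over all genes to 183 to 3471 in ATF6aKO, 1101 to 5304 in ATF6bKO, 3864 to 6664 pooled and 2978 to 10521 in WT. For responses minus WT it gave 0 to 7650 in ATF6aKO and 750 to 9019 in ATF6bKO, and 0 to 91 for ATF6aKO minus ATF6bKO responses. Genotype counts were 5419 to 8267 and 4141 to 7072 for ATF6aKO and ATF6bKO minus WT, and 33 to 2786 for ATF6aKO minus ATF6bKO. Under the other alternatives, counts over 1.5 times apart were 698 with no filter, 687 with only the compared arrays and 2927 without WT in ATF6aKO, against 1488; 1805 with normexp, 1813 with only the compared arrays and 4602 without WT in ATF6bKO, against 3006; and 639 with only the compared arrays in WT, against 7406. For response differences they were 2685, 267, 2861 and 6511 with normexp, no filter, strict filter and WT by descriptions in ATF6aKO minus WT, against 1783, 1495 and 6829 with no filter and WT by descriptions in ATF6bKO minus WT, against 3412, and 5 with quantile scaling and 4 without WT in ATF6aKO minus ATF6bKO, against 0. Genotype counts were 12419 with normexp and 10954 with the value table in ATF6bKO minus WT, against 6848, and 13179 with normexp, 1191 with no filter and 1105 with the replicate block in ATF6aKO minus ATF6bKO, against 2131. Same-numbered samples did not deviate together (correlations of -0.22 to 0.15 over genes), so the replicate block stands here only. Probes near background, such as the second Il1r2 probe, limit what can be read in ATF6bKO UT colon.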
